A study of Mus musculus with 12 samples.

Results

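The bile acid synthesis enzymes are 10 genes of the pathway that turns cholesterol into conjugated bile acids: Cyp7b1, Cyp27a1, Hsd3b7, Cyp8b1, Akr1d1, Akr1c6, Slc27a5, Amacr, Scp2 and Baat. They were taken by symbol from a list of pathway enzymes, and all 10 were measured, each by 1 probe set, among the 11861 genes with a symbol on the array. Cyp7a1, the enzyme that opens the classical route, was not analysed here. Expression arrays had been run on total RNA of spheroids, the round aggregates that primary hepatocytes form on their own in plates to which they cannot attach. The cells came from C57BL/6 mice and had been frozen as 4 preparations, 2 male and 2 female, each a pool of 3 animals. Every preparation was sampled at culture days 1, 7 and 14 after spheroid formation, which gives 12 arrays in 6 groups of sex and day with 2 arrays each. No treatment beyond culture is given in the labels, and the ages of the animals are not stated there. Levels are log2 values, so a difference of 1 is a doubling, and levels of different genes are not set against each other because each probe set has its own brightness.

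In the classical route of bile acid synthesis the steroid ring of cholesterol is hydroxylated first, and in the alternative route the side chain is oxidized first, by Cyp27a1, before Cyp7b1 hydroxylates the ring. Both routes share the enzymes that rebuild the ring, and Cyp8b1 then sets the balance between cholic acid and the acids that lack its 12-position hydroxyl group. The side chain is activated and shortened in peroxisomes and the acid is joined to taurine or glycine before export into bile. Many steroid-metabolizing genes of mouse liver differ between males and females, and Cyp7b1 is known as one with higher expression in males.

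The hepatocyte label held on its markers: the mean log2 level of 10 of 10 hepatocyte markers, Alb and Hnf4a among them, lay between 11.71 and 11.95 on every array. The Y-linked genes Uty and Eif2s3y read 7.67 or more on the male arrays and 2.47 or less on the female arrays, as labelled. Array medians lay between 7.47 and 7.53, and arrays of the same group correlated at 0.984 to 0.99 over all genes. Every probe set in the table reached at least 4.79 on some array, so a level under 4.79 is taken here as near background. That limit is a working convention and not a measured background, since Uty and Eif2s3y lay well below it on the female arrays. Of the enzymes, 8 of 10 stayed above 4.79 on every array. Cyp8b1 lay under it on 6 of 6 male arrays, and Akr1c6 on 4 of 6 male arrays and 1 of 6 female arrays. Cyp8b1 is thus in the table through its female arrays alone, so its values by sex are given as a description. For Cyp8b1 and Akr1c6 a fold that rests on values under 4.79 is given as a lower bound, with those values set to 4.79. In such bulk RNA, fewer cells of a type and less RNA per cell cannot be told apart.

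Cyp7b1 was 3.98-fold higher in male than in female spheroids over the 3 days, and it was higher in males on each day. Cyp8b1, Akr1c6, Akr1d1 and Slc27a5 had their larger values in females, with male minus female differences of -1.92, -1.54, -1.31 and -0.58 that did not pass the test over all days. Akr1c6 was lower in males at day 14, by at least 2.58-fold in size. Over the days Akr1c6 was the 1 enzyme that passed: it rose at day 7 against day 1, by at least 1.79-fold. Most of its day 1 arrays lay under 4.79, and the call was lost without any 1 preparation. The other enzymes passed in no comparison between days, though Akr1d1, Slc27a5, Amacr and Scp2 were also higher at day 7 than at day 1 in all 4 preparations.

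**Figure D1:**
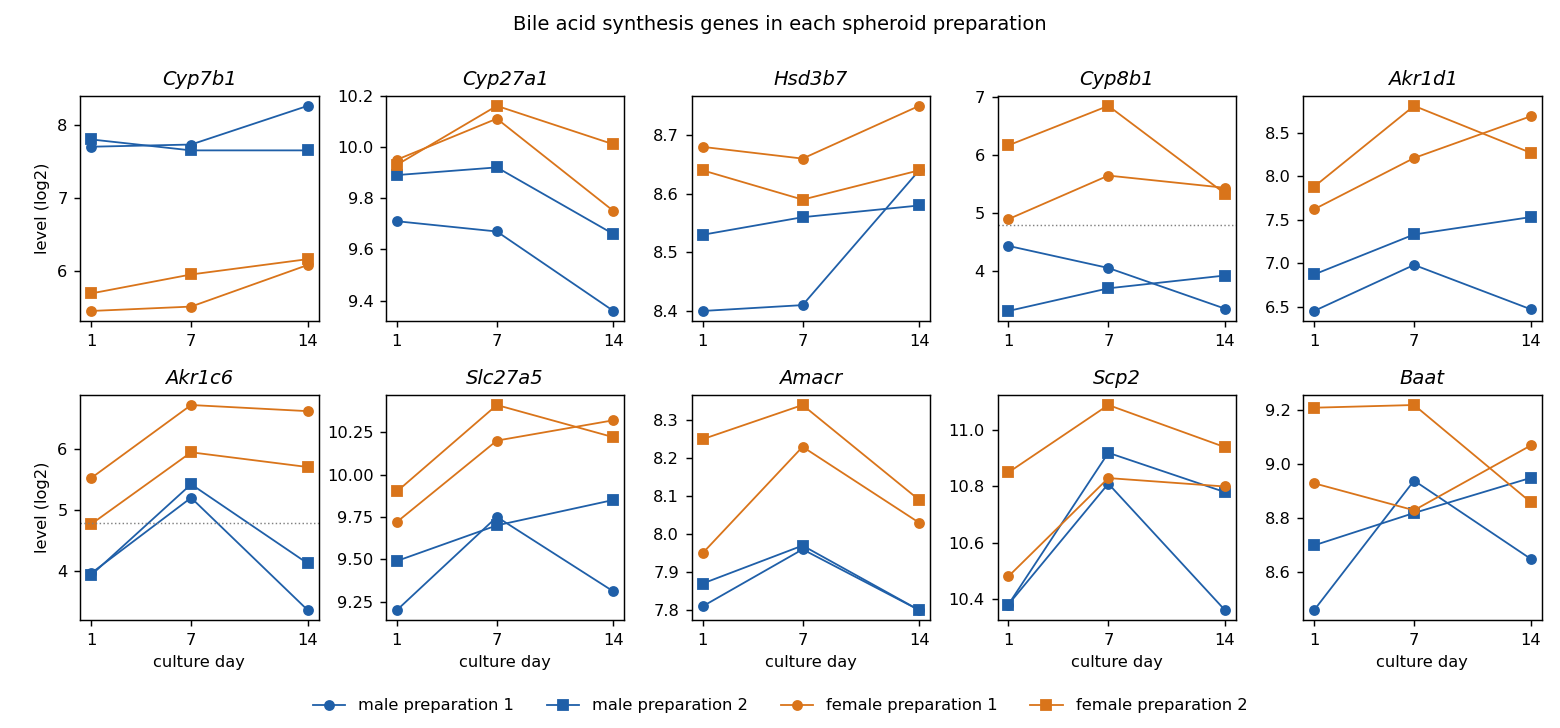
Log2 level of each of the 10 enzymes by culture day (1, 7 and 14), with 1 line for each of the 4 preparations, male in blue and female in orange, and a dotted line at 4.79 where a gene crosses it. The male lines of Cyp7b1 run between 7.65 and 8.26, above the female lines at 5.45 to 6.16, and those of Cyp8b1 and Akr1d1 run below the female lines throughout.

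For the sexes, the 3 arrays of a preparation were averaged and 2 male were compared with 2 female values in limma, with Benjamini-Hochberg adjustment over all genes. At an adjusted p under 0.05, 1 of 10 enzymes passed, beside 0.177 percent of all genes, and 8 of 10 had an unadjusted p under 0.05, beside 19.8 percent of all genes. The male minus female difference was above 0 for 1 enzyme and below 0 for 9, with a median of -0.28, against a median of 0.02 over all genes, of which 45.2 percent lay below 0. Over single arrays, all 6 male arrays lay above all 6 female arrays for 1 enzyme, Cyp7b1, beside 1.80 percent of all genes. They lay below all female arrays for 2 enzymes, Cyp8b1 and Akr1d1, beside 1.48 percent of all genes. Of these, Cyp8b1 is in the table through its female arrays alone, so its separation is partly fixed by that selection. The same holds for its place among the 8 with an unadjusted p under 0.05, among the 9 below 0 and in the median. Since same-numbered preparations are the same pool of animals on each day, the comparison was also run with the preparation as a random replicate block over the 12 arrays. It then passed 6 of 10 enzymes, Cyp8b1 among them, and 929 genes in place of 21. The estimated correlation within a preparation was 0.038, so that fit counts the 3 days nearly as separate samples. Its adjusted p-values for the sexes are given below to show how the setting matters, and no call is drawn from them.

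Within a day, Cyp7b1 passed at day 1, beside 0.767 percent of all genes, and it again was the 1 of 10 at day 7, beside 0.354 percent. The fit behind these calls takes its spread from all 12 arrays and counts the arrays of a preparation as separate. At day 14 the 2 that passed were Cyp7b1, higher in males, and Akr1c6, lower in males, beside 1.06 percent of all genes. Groups of 2 preparations carry these calls: without any 1 of the 4 preparations Cyp7b1 no longer passed at day 1 or day 7 (adjusted p = 0.0591 to 0.23). At day 14 Cyp7b1 did not pass without male preparation 1, female preparation 1 or female preparation 2 (adjusted p = 0.127, 0.105 and 0.065), nor without the day 14 array of male preparation 1 (adjusted p = 0.0595).

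**Figure D2:**
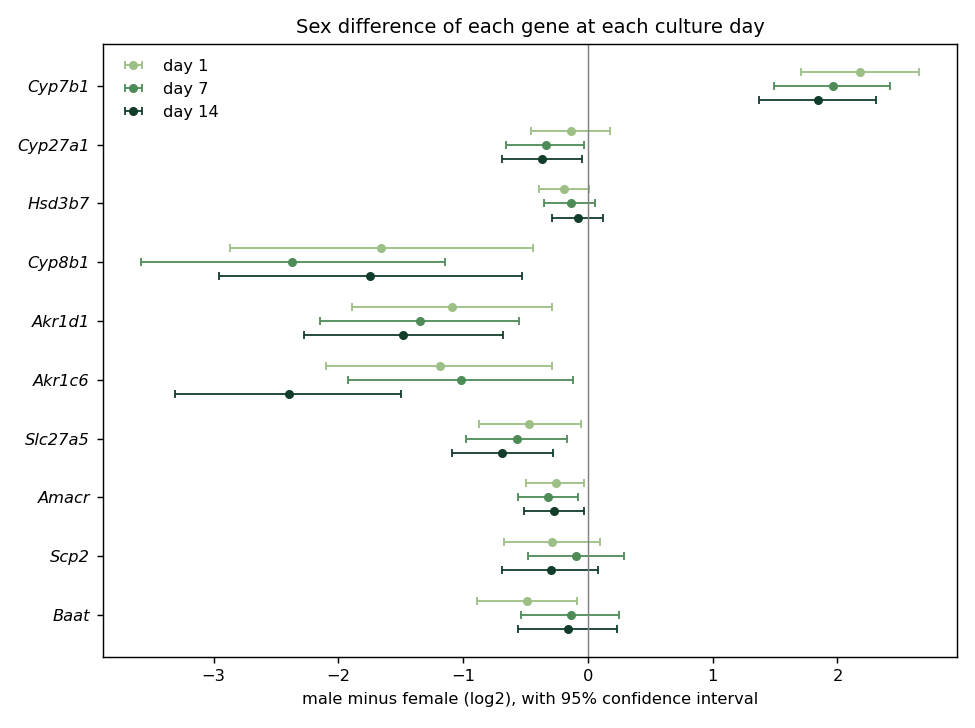
Male minus female log2 difference of each enzyme at days 1, 7 and 14, with its 95 percent interval from the limma fit over 12 arrays (2 male and 2 female preparations). That fit counts the arrays of a preparation as separate. Cyp7b1 lies above 0 on every day and the other 9 enzymes lie below 0 on every day.

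Cyp27a1, the mitochondrial side-chain hydroxylase that starts the alternative route, differed little between groups. Its log2 levels at days 1, 7 and 14 were 9.71, 9.67 and 9.36 in male preparation 1 and 9.89, 9.92 and 9.66 in male preparation 2. They were 9.95, 10.11 and 9.75 in female preparation 1 and 9.93, 10.16 and 10.01 in female preparation 2. The day 14 level was the lowest of the 3 in both male preparations and in female preparation 1, and on each day the males lay below the females. The male minus female difference was -0.28 ± 0.104 (SE, adjusted p = 0.245). The change at day 14 against day 7 was -0.27 ± 0.0981 (adjusted p = 0.261).

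Fdx1, the ferredoxin that passes electrons to mitochondrial P450 enzymes such as Cyp27a1, fell at day 7 against day 1 by 0.39 ± 0.0693 on the log2 scale (adjusted p = 0.02). At day 14 against day 1 Fdx1 fell by 0.67 ± 0.0693 (adjusted p = 0.000768). Its group means at days 1, 7 and 14 were 9.78, 9.41 and 9.13 in males and 10.06, 9.66 and 9.38 in females. The day 7 call of Fdx1 was lost without any 1 preparation (adjusted p = 0.0733 to 0.212), and the day 14 call was kept without each.

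Cyp7b1, the oxysterol 7-alpha-hydroxylase, was the 1 enzyme that passed between the sexes over all days. Its log2 levels at days 1, 7 and 14 were 7.7, 7.73 and 8.26 in male preparation 1 and 7.8, 7.65 and 7.65 in male preparation 2. In female preparation 1 they were 5.45, 5.51 and 6.08, and in female preparation 2 they were 5.69, 5.95 and 6.16. The lowest male array lay 1 log2 unit and more above the highest female array, and the sexes did not overlap on any day. Averaged over days Cyp7b1 was 7.8 in males and 5.81 in females, a difference of 1.99 ± 0.121 (SE, 95 percent interval 1.67 to 2.31, adjusted p = 0.0397, n = 2 preparations each by limma). It ranked 9th among 11861 genes by the size of a difference toward males. Cyp7b1 did not pass when either male preparation was left out (adjusted p = 0.226 without the first and 0.0643 without the second, with differences of 1.895 and 2.091).

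The Cyp7b1 sex difference was 2.18 at day 1 (adjusted p = 0.00336), 1.96 at day 7 (adjusted p = 0.00907) and 1.84 at day 14 (adjusted p = 0.0104), or 4.53-fold, 3.88-fold and 3.58-fold. The order of group means ran from males at day 14, day 1 and day 7 (7.96, 7.75 and 7.69) to females at day 14, day 7 and day 1 (6.12, 5.73 and 5.57). The 3 male groups overlapped each other, and the female day 14 arrays lay just above the female day 7 arrays. The change at day 14 against day 1 was 0.38 ± 0.145 (adjusted p = 0.127). Of all genes, those most like Cyp7b1 over the 12 arrays were Scara5 (Pearson r = 0.98), Uty (r = 0.978) and Eif2s3y (r = 0.968). These 12 points come from 4 preparations that split by sex, so the likeness reads that split.

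Hsd3b7, the dehydrogenase that oxidizes the ring hydroxyl group after the first hydroxylation, was the steadiest of the enzymes. Its levels at days 1, 7 and 14 were 8.4, 8.41 and 8.64 in male preparation 1 and 8.53, 8.56 and 8.58 in male preparation 2. They were 8.68, 8.66 and 8.75 in female preparation 1 and 8.64, 8.59 and 8.64 in female preparation 2. All 12 values lay within a narrow band, in which the males lay at or below the females on each day but the sexes overlapped over the days. The male minus female difference was -0.14 ± 0.0668 (adjusted p = 0.343, 95 percent interval -0.32 to 0.04). Between days 1 and 7 the change was -0.01 ± 0.0632, with an interval of -0.15 to 0.14.

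Of the enzymes, Cyp8b1, Akr1d1 and Akr1c6 had the largest differences toward females, though none of the 3 passed over all days. Those of Cyp8b1 and Akr1c6 rest partly on male values under 4.79. The 250 bases before the transcription starts of these 3 genes are shown, a choice made by those differences. The sequences are those of RefSeq on GRCm38.p6, where 6 of 10 enzymes had an entry (Cyp27a1, Scp2, Akr1d1, Hsd3b7, Cyp8b1 and Akr1c6), and Cyp7b1, Baat, Slc27a5 and Amacr had none. Cyp8b1 is at chr9:121916306-121916555 on the minus strand, Akr1d1 at chr6:37529923-37530172 on the plus strand and Akr1c6 at chr13:4434093-4434342 on the plus strand, each written 5′ to 3′ toward its gene. Capitals mark matches to the motifs searched on both strands.
Cyp8b1: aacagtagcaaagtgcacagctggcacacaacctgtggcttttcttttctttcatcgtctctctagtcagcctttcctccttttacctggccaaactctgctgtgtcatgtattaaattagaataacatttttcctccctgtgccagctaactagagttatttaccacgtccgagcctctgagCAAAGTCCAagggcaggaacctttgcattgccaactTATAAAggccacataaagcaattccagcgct
Akr1d1: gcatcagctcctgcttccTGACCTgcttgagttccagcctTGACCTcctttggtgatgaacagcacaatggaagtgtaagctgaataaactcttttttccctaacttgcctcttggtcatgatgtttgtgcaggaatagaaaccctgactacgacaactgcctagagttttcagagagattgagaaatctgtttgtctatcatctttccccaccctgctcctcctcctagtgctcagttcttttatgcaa
Akr1c6: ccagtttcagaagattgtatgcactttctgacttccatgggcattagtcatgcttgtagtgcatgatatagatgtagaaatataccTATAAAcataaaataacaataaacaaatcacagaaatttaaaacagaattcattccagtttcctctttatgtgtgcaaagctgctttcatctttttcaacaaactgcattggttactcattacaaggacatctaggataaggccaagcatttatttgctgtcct
The motifs were TTCNNNGAA, which STAT factors bind, AGGTCA, the half-site of many nuclear receptors, and TATAAA, known from core promoters. One more, CAAAGTCCA, which the liver factor HNF4 binds, was added after the sequences were seen.

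Counting back from the base before the start as -1, Cyp8b1 held CAAAGTCCA at -67 to -59 and TATAAA at -31 to -26. Akr1d1 held AGGTCA on the reverse strand, read as TGACCT, at -232 to -227 and again at -210 to -205. Akr1c6 held TATAAA at -164 to -159. Windows of the same length before all 32851 listed starts held TTCNNNGAA in 7.02 percent, AGGTCA in 14.0 percent, CAAAGTCCA in 0.384 percent and TATAAA in 12.4 percent. Of the 6 enzymes, Hsd3b7 held TTCNNNGAA (TTCCTGGAA at -21 to -13), Scp2 held AGGTCA at -109 to -104, and Cyp27a1 held no match in its window. No motif overlapped another in these windows, and a match describes letters only.

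Cyp8b1, the sterol 12-alpha-hydroxylase, is the enzyme that commits intermediates to cholic acid. Its levels at days 1, 7 and 14 were 4.43, 4.05 and 3.35 in male preparation 1 and 3.31, 3.7 and 3.92 in male preparation 2, all near background. In female preparation 1 they were 4.89, 5.64 and 5.43, and in female preparation 2 they were 6.16, 6.84 and 5.33. Every female array exceeded every male array, and the highest value was that of female preparation 2 at day 7. The mean was 3.79 in males and 5.72 in females, so that females were at least 1.9-fold higher. The limma difference of -1.92 rests on male values near background, and its adjusted p = 0.0885 did not pass.

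The Cyp8b1 sex difference was -1.66 at day 1, -2.37 at day 7 and -1.75 at day 14, each resting on male values near background, and none passed. The 2 female preparations were unlike over time: at day 14 against day 7 female preparation 2 differed by -1.51 and female preparation 1 by -0.21. The standard error of a day change was accordingly wide for this gene, at 0.377. The genes most like Cyp8b1 over the 12 arrays were Cyp3a44 (r = 0.962), Atraid (r = 0.961) and Dera (r = 0.933), again over points that split by sex. The male points of Cyp8b1 lay near background, as did Cyp3a44 at 2.16 to 3.39 in males, against 3.88 to 5.3 in females.

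Akr1d1, the 5-beta-reductase that bends the steroid ring into the bile acid shape, gave 6.45, 6.98 and 6.47 at days 1, 7 and 14 in male preparation 1 and 6.87, 7.33 and 7.53 in male preparation 2. Female preparation 1 gave 7.62, 8.21 and 8.69, and female preparation 2 gave 7.88, 8.81 and 8.27. The sexes did not overlap on any array, and the day 7 value exceeded the day 1 value in all 4 preparations. The mean was 6.94 in males and 8.24 in females, a difference of -1.31 ± 0.216 (adjusted p = 0.0919; 0.00972 with the random replicate block). The change at day 7 against day 1 was 0.63 ± 0.248 (adjusted p = 0.209). At day 14 against day 1 it was 0.53 ± 0.248 (adjusted p = 0.199), with an adjusted p = 0.0484 when the day 14 array of male preparation 1 was left out.

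Akr1c6 is a hydroxysteroid dehydrogenase of the aldo-keto reductase family, whose close copies a probe set may also read. Its levels at days 1, 7 and 14 were 3.97, 5.2 and 3.37 in male preparation 1 and 3.94, 5.42 and 4.13 in male preparation 2. They were 5.52, 6.71 and 6.61 in female preparation 1 and 4.77, 5.94 and 5.7 in female preparation 2. All preparations were higher at day 7 than at day 1, by 1.23 and 1.48 in males and by 1.19 and 1.17 in females. Akr1c6 rose by 1.27 ± 0.28 at day 7 against day 1 (SE, 95 percent interval 0.63 to 1.9, adjusted p = 0.0416), with 3 of the 4 day 1 arrays under 4.79. The call was lost without any 1 of the 4 preparations (adjusted p = 0.0733 to 0.252), while the change stayed between 1.203 and 1.329.

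The Akr1c6 values of day 14 differed from those of day 7 by -1.82 and -1.28 in the male preparations, and by -0.1 and -0.24 in the female preparations. The average change was -0.86 ± 0.28 (adjusted p = 0.216), which passed with the replicate block (adjusted p = 0.0449). The difference in that change, male minus female, was -1.38 ± 0.561 (unadjusted p = 0.0371, adjusted p = 0.999), so no sex difference in the change was called. At day 14 Akr1c6 was 3.75 in males and 6.16 in females, a difference of -2.4 ± 0.396 (adjusted p = 0.0309), with both male arrays under 4.79. Akr1c6 did not pass there when male preparation 1, male preparation 2 or female preparation 1 was left out (adjusted p = 0.401, 0.114 and 0.124). Leaving out the day 14 array of male preparation 1 alone gave -2.023 (adjusted p = 0.233). At days 1 and 7 the differences were -1.19 and -1.02 (adjusted p = 0.24 and 0.328), and over all days it was -1.54 ± 0.295 (adjusted p = 0.11; 0.00819 with the random replicate block).

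Markers of other liver cell types were read beside these differences. At day 14 the mean log2 level of 12 of 12 stellate cell markers was 4.32 to 5.33 on the male arrays and 6.27 to 6.76 on the female arrays, and all 12 differences lay below 0. The 7 of 10 endothelial markers measured averaged 3.66 to 4.02 in males and 4.97 to 5.31 in females at day 14. The hepatocyte markers averaged 11.72 to 11.79 in males and 11.84 to 11.89 in females. At day 7 against day 1 all 10 Kupffer cell markers measured of 12 had values above 0 with a median of 0.96, and 11 of 12 stellate markers had values below 0 with a median of -0.89. The 7 endothelial markers had a median of -0.64 there. Of the 5 of 10 cholangiocyte and progenitor markers measured, 3 had values above 0 and 2 below, with a median of 0.6. Of those 5, 2 passed in limma, both as higher, beside 4.72 percent of all genes. In the same comparison 3 of 12 stellate markers and 1 of 7 endothelial markers passed as lower, and 0 of 10 Kupffer cell markers passed. Between the sexes at day 14 all 10 Kupffer cell markers lay below 0, with a median of -0.57 and arrays at 5.33 to 5.82 in males and 5.1 to 7.19 in females. The male endothelial means at day 14, some male stellate means at day 14 and some Kupffer cell means at day 1 lay under 4.79, near background. A marker that low in some groups is in the table through the others, so its direction is partly fixed by that selection. The part of these cell types in the enzymes' differences was not tested.

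Slc27a5, the ligase that activates bile acids with coenzyme A before conjugation, gave 9.2, 9.75 and 9.31 at days 1, 7 and 14 in male preparation 1 and 9.49, 9.7 and 9.85 in male preparation 2. Female preparation 1 gave 9.72, 10.2 and 10.32, and female preparation 2 gave 9.9, 10.41 and 10.22. Males lay below females on each day, and every preparation had its lowest value at day 1. The male minus female difference was -0.58 ± 0.108 (adjusted p = 0.109; 0.0168 with the random replicate block). The change at day 7 against day 1 was 0.44 ± 0.126 (adjusted p = 0.0956), and at day 14 against day 1 it was 0.35 ± 0.126 (adjusted p = 0.102). Without the day 14 array of male preparation 1 these became adjusted p = 0.0421 and 0.0259.

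Amacr, the racemase that turns the side chain into the form the peroxisome can shorten, gave 7.81, 7.96 and 7.8 at days 1, 7 and 14 in male preparation 1 and 7.87, 7.97 and 7.8 in male preparation 2. Female preparation 1 gave 7.95, 8.23 and 8.03, and female preparation 2 gave 8.25, 8.34 and 8.09. Day 7 was the highest day in every preparation. The change at day 7 against day 1 was 0.16 ± 0.0741 (adjusted p = 0.293) and at day 14 against day 7 it was -0.2 ± 0.0741 (adjusted p = 0.291). The sexes differed by -0.28 ± 0.0779 (adjusted p = 0.173; 0.0311 with the random replicate block).

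Scp2, whose longer protein form is the peroxisomal thiolase that cleaves the side chain, had its highest level at day 7 in all 4 preparations. Levels at days 1, 7 and 14 were 10.38, 10.81 and 10.36 in male preparation 1 and 10.38, 10.92 and 10.78 in male preparation 2. Those in females were 10.48, 10.83 and 10.8 in preparation 1 and 10.85, 11.09 and 10.94 in preparation 2. The sexes overlapped at day 7, and over all days they differed by -0.23 ± 0.118 (adjusted p = 0.366). Day 7 minus day 1 was 0.39 ± 0.119 (adjusted p = 0.111).

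Baat, the transferase that joins bile acids to taurine or glycine, had no common direction over the days. It gave 8.46, 8.94 and 8.65 at days 1, 7 and 14 in male preparation 1 and 8.7, 8.82 and 8.95 in male preparation 2. It gave 8.93, 8.83 and 9.07 in female preparation 1 and 9.21, 9.22 and 8.86 in female preparation 2. The sexes overlapped at days 7 and 14, and over all days they differed by -0.27 ± 0.0901 (adjusted p = 0.223). Day 7 minus day 1 was 0.13 ± 0.123, with an interval of -0.15 to 0.41.

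**Figure D3:**
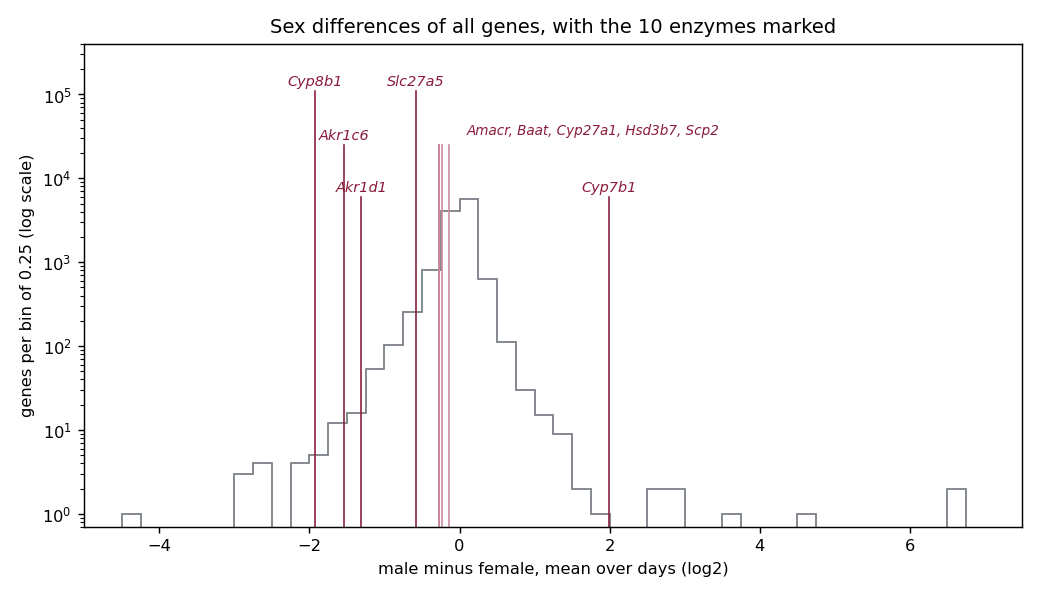
Number of genes per bin of 0.25 (log axis) by male minus female log2 difference averaged over days, for all 11861 genes, with the 10 enzymes as vertical lines whose height has no meaning. Cyp7b1 at 1.99 lies in the far right tail and Cyp8b1 at -1.92, Akr1c6 at -1.54 and Akr1d1 at -1.31 in the left tail, while 5 enzymes lie between -0.28 and -0.14. The places of Cyp8b1 and Akr1c6 rest partly on male values under 4.79. Cyp8b1 is in the table through its female arrays alone, so its place is partly fixed by that selection.

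Set side by side over the days, few of the enzymes passed. At day 7 against day 1 limma passed 1 of 10, Akr1c6, beside 4.72 percent of all genes. Values were above 0 for 9 and below 0 for 1, beside 49.9 percent of all genes above 0, and 4 had an unadjusted p under 0.05, beside 19.5 percent of all genes. Here the median was 0.26 against 0.0 over all genes. For day 14 against day 7 limma passed 0 of 10, beside 0.489 percent of all genes, with 3 at an unadjusted p under 0.05 (13.7 percent of all genes) and a median of -0.14. For day 14 against day 1 it passed 0 of 10, beside 14.4 percent of all genes, with 2 at an unadjusted p under 0.05 (28.6 percent of all genes) and a median of 0.14. The enzymes' standard errors ran from 0.0632 for Hsd3b7 to 0.377 for Cyp8b1, against a median of 0.0946 over all genes.

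Changes were also read within each preparation. At day 7 against day 1 the change was above 0 in all 4 preparations for 5 enzymes (Akr1d1, Akr1c6, Slc27a5, Amacr and Scp2), beside 15.0 percent of all genes, and below 0 in all 4 for 0, beside 14.1 percent. For day 14 against day 7 it was above 0 in all 4 for 2 (Cyp7b1 and Hsd3b7), beside 13.2 percent, and below 0 in all 4 for 4 (Cyp27a1, Akr1c6, Amacr and Scp2), beside 11.3 percent. For day 14 against day 1 it was above 0 in all 4 for 2 (Akr1d1 and Slc27a5), beside 18.1 percent, and below 0 in all 4 for 0, beside 16.2 percent.

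A sex difference in the change itself was called by limma for 0 of 10 enzymes in each of the 3 day comparisons, beside 0.00 percent of all genes at day 7 against day 1, 0.00 percent at day 14 against day 7 and 0.00 percent at day 14 against day 1. At an unadjusted p under 0.05 the count was 0, 1 and 0, the 1 being Akr1c6. The standard error of such a difference had a median of 0.189 over all genes.

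**Figure D4:**
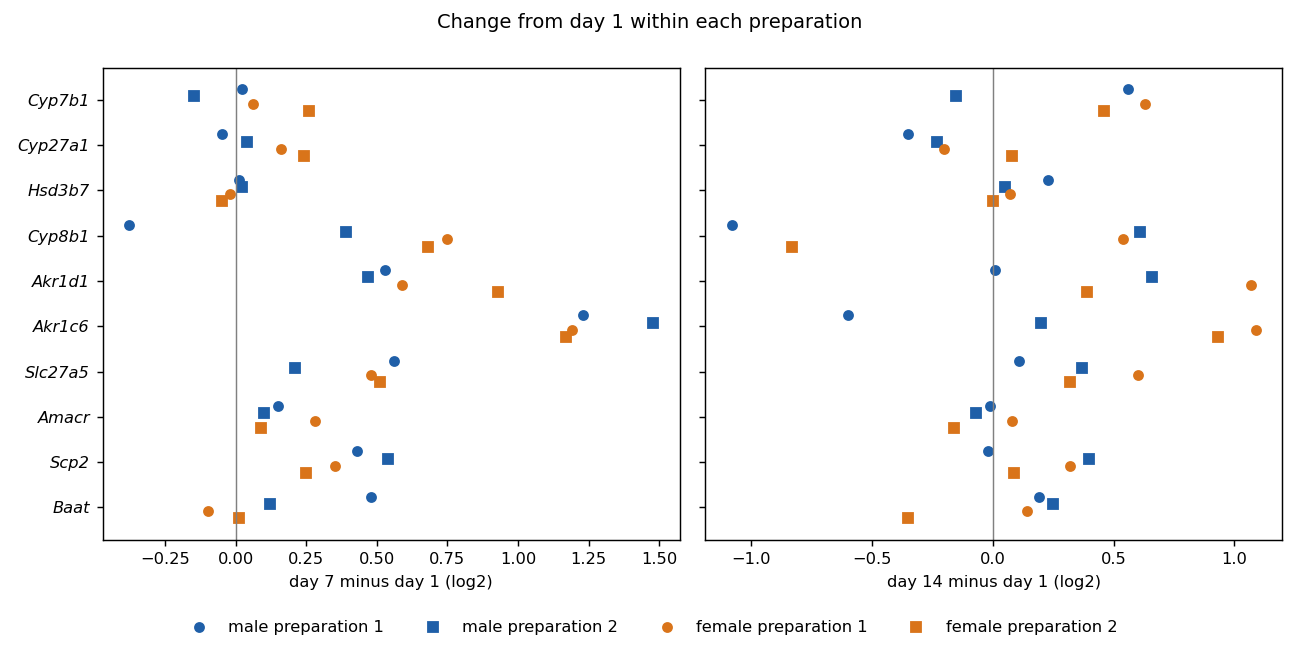
Log2 change of each enzyme between days, with 1 point for each of the 4 preparations (male in blue, above female in orange), for day 7 minus day 1 on the left and day 14 minus day 1 on the right. The Akr1c6 points lie between 1.17 and 1.48 at day 7, and at day 14 they lie at -0.6 and 0.2 in males and at 1.09 and 0.93 in females.

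Other genes of the pathway were read from 3 lists. Of 14 measured genes of other synthesis and peroxisomal steps, out of 20 listed, 1 rose and 1 fell at day 7 against day 1, beside 4.72 percent of all genes called, and likewise at day 14 against day 1, beside 14.4 percent. The one that rose in both was Slc27a2, a very long-chain acyl-CoA synthetase that also acts on the bile acid side chain. It rose by 0.37 ± 0.0803 at day 7 (adjusted p = 0.0398) and by 0.42 ± 0.0803 at day 14 (adjusted p = 0.0112). The one that fell in both was Fdx1. Slc27a2 did not pass at day 7 without any 1 preparation (adjusted p = 0.099 to 0.317), nor at day 14 without male preparation 1, male preparation 2 or female preparation 1 (adjusted p = 0.133, 0.123 and 0.0693). Between days 7 and 14 limma passed 0 of 14, with 3 at an unadjusted p under 0.05, beside 13.7 percent of all genes.

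Of 20 measured regulators, out of 21 listed, 1 passed at day 7 against day 1, beside 4.72 percent of all genes: Rxra, the common partner of the bile acid and oxysterol receptors, rose by 0.32 ± 0.058 (adjusted p = 0.0216). At day 14 against day 1, 4 rose and 1 fell, beside 14.4 percent of all genes called. Ppara, the fatty acid receptor, rose by 0.49 ± 0.114 (adjusted p = 0.023), and Nr1h3, the oxysterol receptor LXR-alpha, rose by 0.31 ± 0.0824 (adjusted p = 0.0386). Nr5a2, the receptor LRH-1, rose by 0.24 ± 0.0621 (adjusted p = 0.0334), and Rxra, the fifth that passed, rose by 0.22 ± 0.058 (adjusted p = 0.0371). Stat5b, the growth hormone signal transducer tied to sex-dependent liver expression, fell by 0.36 ± 0.0796 (adjusted p = 0.0195).

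The bile acid receptor FXR, Nr1h4, had a day 7 minus day 1 difference of 0.16 ± 0.107 (adjusted p = 0.454). Its repressor target SHP, Nr0b2, had a day 14 minus day 1 difference of -0.84 ± 0.41 (adjusted p = 0.219). With the replicate block the day 14 against day 1 adjusted p was 0.0608 for Nr1h3, 0.0609 for Nr5a2 and 0.064 for Rxra. Leaving out any 1 preparation ended the calls of Rxra (adjusted p = 0.118 to 0.256 at day 7 and 0.164 to 0.222 at day 14), Nr1h3 (0.078 to 0.262), Nr5a2 (0.118 to 0.214) and Stat5b (0.0621 to 0.2). Ppara did not pass without male preparation 1, male preparation 2 or female preparation 2 (adjusted p = 0.178, 0.166 and 0.0922). Between days 7 and 14 limma passed 0 of 20 regulators, with 1 at an unadjusted p under 0.05, beside 13.7 percent of all genes.

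Of 12 measured transporters, out of 15 listed, 1 rose at day 7 against day 1, beside 4.72 percent of all genes called, and 2 rose and 1 fell at day 14 against day 1, beside 14.4 percent. At day 14 against day 7, 1 fell, beside 0.489 percent. Abcc4, an export pump of the sinusoidal membrane, rose by 0.65 ± 0.143 at day 7 (adjusted p = 0.0417) and by 1.1 ± 0.143 at day 14 (adjusted p = 0.00195), the second call being kept without each preparation. Abcc3, another such pump, rose by 0.21 ± 0.0595 at day 14 (adjusted p = 0.0461). Atp8b1, a lipid flippase of the canalicular membrane, fell by 0.35 ± 0.058 at day 14 against day 1 (adjusted p = 0.00573) and by 0.38 ± 0.058 at day 14 against day 7 (adjusted p = 0.0343). Without any 1 preparation the calls of Abcc4 at day 7 (adjusted p = 0.117 to 0.25), Abcc3 (0.152 to 0.258) and Atp8b1 at day 14 against day 7 (0.179 to 0.364) were lost. Atp8b1 at day 14 against day 1 did not pass without male preparation 1, male preparation 2 or female preparation 2 (adjusted p = 0.0937, 0.102 and 0.0567). With the replicate block the adjusted p was 0.0627 for Abcc3 and, at day 14 against day 7, 0.0546 for Atp8b1.

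Between the sexes over all days limma passed 0 genes in each of the 3 lists. At an unadjusted p under 0.05 there were 6 of 14 other synthesis genes, 4 of 20 regulators and 8 of 12 transporters, beside 19.8 percent of all genes, with median differences of -0.17, -0.07 and -0.43. Differences lay below 0 for 12 of 14, 14 of 20 and 11 of 12, beside 45.2 percent of all genes. The uptake carrier Slco1b2 differed by -1.44 ± 0.302 (adjusted p = 0.121), the uptake carrier Slc10a1 by -1.03 ± 0.207 (adjusted p = 0.116) and the export pump Abcb11 by -0.49 ± 0.0931 (adjusted p = 0.109). Slco1b2 had arrays at 4.9 to 6.2 in males and 6.68 to 7.46 in females, and Slc10a1 at 8.71 to 10.04 in males and 10.14 to 10.87 in females. Of the 12 measured transporters, all male arrays lay below all female arrays for these carriers and for Slco2b1, Abcb4 and Abcg5. The sexes overlapped on the rest, and 1.48 percent of all genes had all male arrays below all female arrays. Slco1b2, Slco2b1, Abcb4 and Abcg5 are named here for their sex difference, so their separation is partly fixed by that choice.

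Nr1i3, the constitutive androstane receptor, differed by -1.13 ± 0.183 (adjusted p = 0.0919), with arrays at 5.48 to 6.92 in males and 7.12 to 7.83 in females. With the random replicate block the adjusted p was 0.00819 for Nr1i3, 0.0186 for Slco1b2, 0.0208 for Slc10a1 and 0.0272 for Abcb11. That fit counts the days of a preparation nearly as separate samples, so no call is drawn from these values. Nr1h4 differed by -0.04 ± 0.083 (adjusted p = 0.813) and Nr5a2 by 0.01 ± 0.0589 (adjusted p = 0.949). Nr0b2 differed by -0.22 ± 0.422 over all days (adjusted p = 0.814), which averages 0.34 at day 1, 0.28 at day 7 and -1.27 ± 0.579 at day 14 (adjusted p = 0.355 at day 14).

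**Figure D5:**
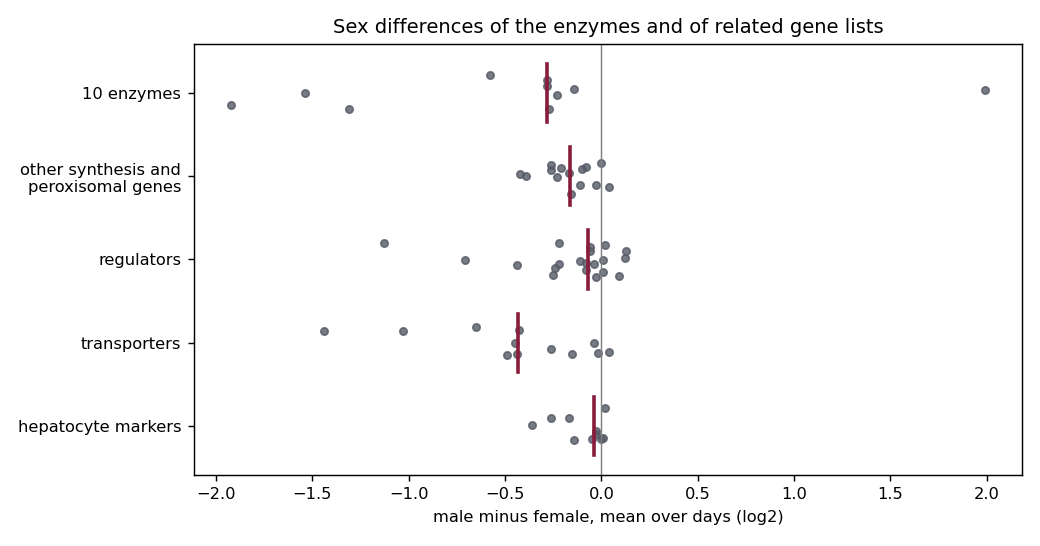
Male minus female log2 difference over all days for every measured gene of the enzymes (10), other synthesis and peroxisomal steps (14), regulators (20), transporters (12) and hepatocyte markers (10), 1 point per gene, with a bar at each list's median. The medians are -0.28, -0.17, -0.07, -0.43 and -0.04, and Cyp7b1 at 1.99 is the 1 point far above 0.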

How the data were processed

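The deposited values are log2 levels. RMA, Transcriptome Analysis Console 4.0 and Partek 7.0 stand in the submitters' processing notes without their roles, and no source used here gives the array build, the annotation release or a filter. Of 13081 probe sets, 11889 had 1 symbol and 1192 none in the platform annotation. All 11889 matched RefSeq by gene number. The highest-mean probe set per symbol left 11861 genes, and 0 columns of samples were unused. The number of arrays limits the precision.

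Groups came from the labels. Day comparisons, sexes within a day and sex differences in the change were contrasts in 1 limma 3.58.1 model of 6 group means (R 4.3.3), and sex over all days compared preparation means. Tests were two-sided with Benjamini-Hochberg adjustment over all genes. Each ± on a difference is the standard error of the fit. P-values measure the spread between these pools. In the model of 6 group means, that spread counts the arrays of a pool on different days as separate. The fits were tested on simulated data.

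The labels tie arrays of a preparation to 1 pool of animals, so the preparation was a replicate block in an alternative. Deviations of same-numbered arrays correlated at 0.0359 to 0.324. Other alternatives were leaving out each preparation or the day 14 array of male preparation 1, median centring, a second quantile normalization, trended robust variances, a minimum mean of 5, probe-set means and all probe sets. The members and lists were chosen with earlier results of these data known. Named genes were all 10 enzymes, up to 4 passing genes with the largest change per list and day comparison, and Slc10a1, Abcb11, Nr1h4, Nr0b2 and Nr5a2. Rxra at day 14 was added after its values were seen, as were the list genes named for their sex difference.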

Additional observations from a re-analysis of the deposited data

Results flagged for a closer look

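Hsd3b7 at day 7 against day 1 changed by 0.01 and 0.02 in the male preparations and by -0.02 and -0.05 in the female preparations, so every male moved one way and every female the other. The difference between the sexes in that change was 0.05 ± 0.126 (SE, limma adjusted p = 0.999), less than its error.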

How the results depend on the processing

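Counts of enzymes that passed depended on the setting. With the replicate block, which pairs the days of a preparation, 1 passed at day 14 against day 7 (0 without it). Between the sexes, where nothing is paired, the random replicate block passed 6 over all days (1 without it). It changed no other count of enzymes. Trended robust variances passed 6 over all days and 2 at day 7 between the sexes, the latter beside 178 of 11861 genes. Cyp8b1 is among the 6 in both settings and is 1 of the 2. It is in the table through its female arrays alone, so these passes are partly fixed by that selection. Leaving out a preparation, or the day 14 array of male preparation 1, also moved counts. Such fits leave 1 array in a group or 1 preparation of a sex, so their counts are not given here. The cause was not tested, beyond fewer arrays.

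Over all genes, day 7 against day 1 passed 956 with trended robust variances, against 560. Day 14 against day 7 passed 101 with the block, 309 trended and 105 with the minimum mean, against 58. Between the sexes over all days it was 929, 974 and 133, against 21.

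Small changes turned sign. Hsd3b7 at day 7 against day 1 was 0.001683 after a second quantile normalization. Without the day 14 array of male preparation 1, day 14 against day 7 gave 0.1715 for Akr1d1, 0.0479 for Slc27a5 and 0.004563 for Baat. The sexes then differed by 0.07211 for Nr0b2 and 0.01003 for Nr1h4 in the comparison of preparation means. There male preparation 1 was a mean of days 1 and 7 only, set beside means over all days. Without 1 preparation, day 7 against day 1 ran from -0.001947 to 0.09528 for Cyp7b1. Day 14 against day 7 ran from -0.3493 to 0.1603 for Akr1d1, -0.2367 to 0.06151 for Slc27a5 and -0.2208 to 0.07894 for Baat. Day 14 against day 1 ran from -0.6126 to 0.2342 for Cyp8b1, -0.1003 to 0.01786 for Amacr and -0.06484 to 0.1806 for Baat. Male minus female at day 7 ran from -0.2293 to 0.03295 for Scp2 and -0.3401 to 0.05035 for Baat, and over all days from -0.8345 to 0.3977 for Nr0b2 and -0.1141 to 0.02775 for Nr1h4.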
